A study of Mus musculus with 8 samples.

Results

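The actin and smooth muscle genes examined here were *Acta2*, *Actb*, *Actg1*, *Tagln*, *Tagln2*, *Myh11*, *Myl9*, *Cnn1* and *Des*. Kidney RNA was compared between 4 homozygous *Scube3* mutant mice and 4 wild type mice. The mutants carried on both alleles an ENU-induced asparagine-to-lysine change in *Scube3*, a recessive mutation. All 8 mice were 29-week-old C3HeB/FeJ males, with 1 Illumina Mouse Ref8 v2.0 BeadChip array for each animal. Of the 9 genes listed, 7 had a probe by gene symbol in the probe annotation, among 16593 named genes of the array, and *Tagln2* and *Myl9* were not analysed here. The 7 genes were covered by 14 probes, 4 for *Acta2*, 5 for *Actb* and 1 for each of the others. The genes were selected on earlier results of the same comparison, in which the *Acta2* probes had different fold changes. The fold changes and calls of these genes come from the comparison over all probes. They are therefore given as a description, with no test of the genes as a set. An outlier check on single mice is given near the end.

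Actins are the subunits of the thin filament. *Acta2* encodes the alpha actin of vascular smooth muscle, which in the kidney is found mainly in the walls of arteries and arterioles and also in pericytes and activated fibroblasts. *Actb* and *Actg1* encode the beta and gamma actins that form the cytoskeleton of nearly every cell. In smooth muscle, *Myh11* encodes the myosin heavy chain that pulls on the filament, *Myl9* a light chain of that myosin, *Cnn1* calponin, which restrains the myosin, and *Tagln* transgelin, an actin-binding protein. *Tagln2* encodes a relative of transgelin, and *Des* encodes desmin, an intermediate filament protein of muscle. Many of these genes are activated by the serum response factor SRF, which binds a short DNA element called the CArG box.

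The promoter stretches that hold this element are shown for *Actg1* and *Myl9*, the listed genes in which one was found. Those of *Srf* itself and of *Fhl2* are also shown. *Fhl2* was the only gene of the SRF list below that was called between the genotypes. The search was for CArG boxes that match the element in full on either strand, from 250 bases before to 50 bases after each RefSeq start (mouse build GRCm38.p6). Of the 9 genes, 6 had a promoter in the RefSeq table, and 2 of them, *Actg1* and *Myl9*, held a box. *Actb*, *Tagln* and *Myh11* had no promoter there and were not searched. Over all 32851 promoters 1.63% held one, counted by promoter. Genes were counted once, with a box in any of their promoters, so these shares are not strictly comparable. Among the lists of related genes below, 4 of 8 genes that control or follow SRF held one. So did 2 of 19 genes of the contractile apparatus, 2 of 32 actin filament regulators and 2 of 2 other actins. The windows of *Acta2*, *Tagln2*, *Cnn1* and *Des* had no full match, which says only that these letters are not in those windows. A match is a description of the sequence and not a measured binding site. In the stretches, written 5′ to 3′ on the strand of the gene, capitals mark the box.
*Actg1*, chr11:120348566-120348595, minus strand: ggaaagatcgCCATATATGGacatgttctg
*Myl9*, chr2:156775293-156775322, plus strand: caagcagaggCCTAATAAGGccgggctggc
*Srf*, first box, chr17:46556225-46556254, minus strand: ctggggctcgCCATATAAGGagcggcctcg
*Srf*, next box, chr17:46556205-46556234, minus strand: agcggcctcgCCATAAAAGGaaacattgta
*Fhl2*, upstream start, chr1:43196838-43196867, minus strand: catttagagaCCAAAAAAGGcttgcaggag
*Fhl2*, other start, chr1:43163973-43164002, minus strand: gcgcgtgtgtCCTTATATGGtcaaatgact

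The arrays gave 25697 probes per mouse. The median scanned intensity was 127 to 135 in the mutant mice and 133 to 139 in the wild type mice. Probes above background, with a detection p-value under 0.05, numbered 12602 to 13060 on the mutant arrays and 12685 to 13127 on the wild type arrays. Levels below are log2 intensities after background correction and quantile normalization with an added offset of 16, and 12914 probes above background on at least 4 arrays were compared with limma. A probe is called where the p-value, adjusted by the Benjamini-Hochberg method over these probes, is under 0.05. Levels of different probes are not comparable with each other as amounts of RNA. The replicates are separate animals. The tissue label fitted its markers, since all 6 kidney tubule genes with a probe (*Slc34a1*, *Lrp2*, *Umod*, *Slc12a1*, *Slc12a3* and *Aqp2*) were above background. In whole kidney RNA, fewer smooth muscle cells and less RNA per cell cannot be told apart.

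Of the 14 probes, 12 were above background and were compared, covering *Acta2*, *Actb*, *Tagln*, *Myh11* and *Des*. Among these 12 probes, 1 of *Acta2* was called lower and 1 of *Actb* was called higher in the mutant kidneys, and 10 were not called. Over all probes compared, 16.7% were called, 8.90% lower and 7.83% higher, which is 1149 and 1011 probes. With median scaling 1829 probes were called, 241 of them higher. The genotypes did not overlap on 3 of the 12 probes, against 23.8% of all probes. The median log2 fold change was 0.06 over the 12 probes and 0.01 over all probes.

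**Figure D1:**
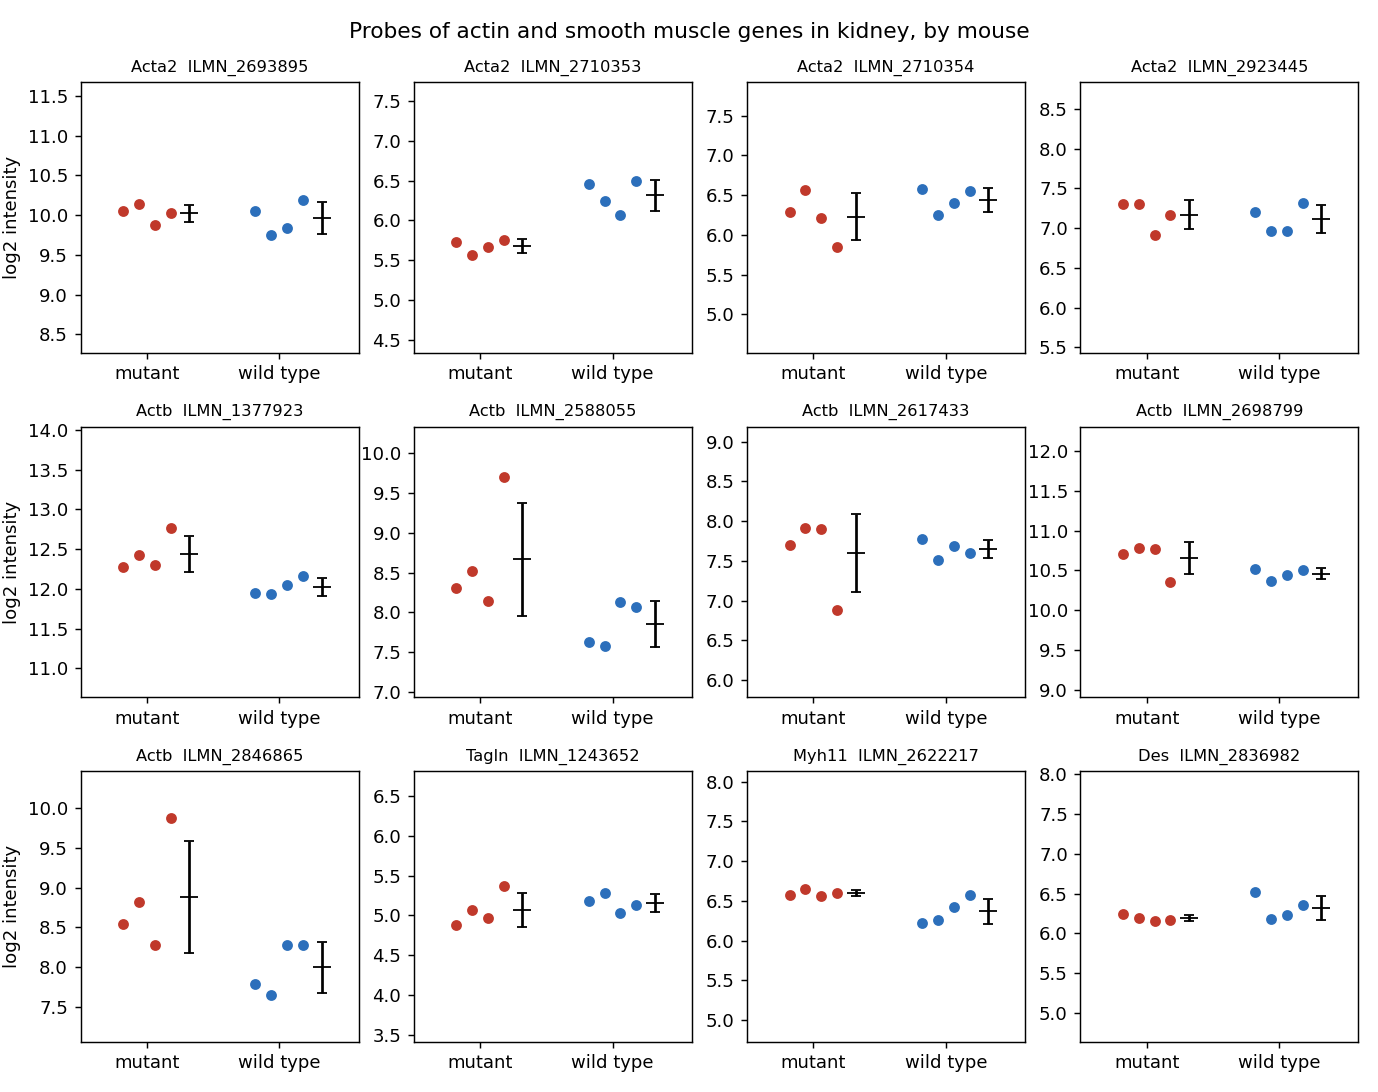
Normalized log2 intensity of the 12 probes above background in each mouse (red points, homozygous mutant; blue points, wild type; replicates 1 to 4 from left to right), with the mean and SD of 4 mice in black. Every panel spans the same number of log2 units. *Acta2* probe ILMN_2710353 lies between 5.56 and 5.75 in the mutant mice, below all wild type mice, and mutant replicate 4 stands apart from the other mutant mice on the *Actb* probes.

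The 4 probes of *Acta2* did not give the same answer. On ILMN_2710353 the level was 5.73, 5.56, 5.66 and 5.75 in mutant replicates 1 to 4, against 6.46, 6.24, 6.06 and 6.49 in wild type replicates 1 to 4. On this probe the genotypes did not overlap, with all mutant mice lower. The means were 5.68 ± 0.09 in the mutant mice and 6.31 ± 0.20 in the wild type mice (SD, n = 4 each), and the log2 fold change was -0.64 (SE 0.10). The scanned intensities behind these levels were 151, 143, 155 and 155 in the mutant mice, against 198, 192, 171 and 203 in the wild type mice, so the probe was dim on every array although it was above background on all 8. Without background correction the log2 fold change of this probe was -0.22, and on the authors' normalized intensities it was -0.86.

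The other *Acta2* probes were not called. ILMN_2693895 was at 10.05, 10.14, 9.88 and 10.03 in the mutant mice, against 10.05, 9.75, 9.84 and 10.19 in the wild type mice, and the genotypes overlapped. Its log2 fold change was 0.07 (SE 0.10). ILMN_2923445 was at 7.30, 7.30, 6.92 and 7.16 in the mutant mice, against 7.20, 6.96, 6.97 and 7.32 in the wild type mice, with a log2 fold change of 0.06 (SE 0.11). These 2 probes moved together from mouse to mouse, both being low in mutant replicate 3 and in wild type replicates 2 and 3. ILMN_2710354 was at 6.29, 6.57, 6.22 and 5.84 in the mutant mice, against 6.58, 6.25, 6.40 and 6.55 in the wild type mice. Its log2 fold change of -0.21 (SE 0.14) was -0.09 without mutant replicate 4, its lowest mouse. From the lowest to the highest probe, the fold changes of *Acta2* spanned 0.70 log2 units. Whether *Acta2* as a gene was lower therefore depended on the probe, and none of its probes was called higher. The 2 probes near 0 each changed sign in 1 of 15 other settings.

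**Figure D2:**
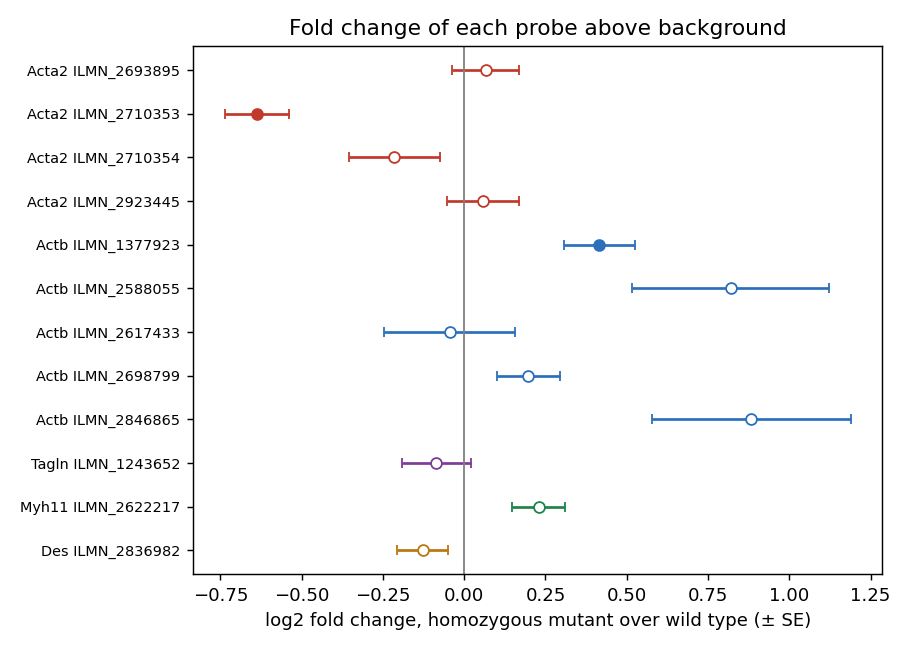
Log2 fold change, homozygous mutant over wild type, of each probe above background, with the standard error from limma. Filled points are the 2 called probes (ILMN_2710353 of *Acta2* at -0.64 and ILMN_1377923 of *Actb* at 0.42), and open points are the 10 that were not called.

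The *Actb* probes were also split, and the split followed 1 mouse. ILMN_1377923 was at 12.28, 12.42, 12.30 and 12.76 in the mutant mice, against 11.94, 11.93, 12.05 and 12.17 in the wild type mice. Every mutant mouse was above every wild type mouse, and the log2 fold change was 0.42 (SE 0.11). This call was lost with median scaling, with no filter on dim probes and without any 1 of mutant replicate 2 and wild type replicates 1, 2 and 3, where the log2 fold change ran from 0.37 to 0.43. ILMN_2588055 was at 8.31, 8.52, 8.14 and 9.71 in the mutant mice, against 7.62, 7.58, 8.13 and 8.07 in the wild type mice. Its genotypes did not overlap either, although mutant replicate 3 at 8.14 was next to wild type replicate 3 at 8.13. The probe had a log2 fold change of 0.82 with an SE of 0.30 and was not called. ILMN_2846865 was at 8.55, 8.82, 8.27 and 9.88 in the mutant mice, against 7.79, 7.65, 8.27 and 8.27 in the wild type mice. Its log2 fold change was 0.88 (SE 0.31), also not called, and mutant replicate 3 and wild type replicate 3 had the same value.

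The last 2 *Actb* probes were low in the mouse where the others were high. ILMN_2698799 was at 10.70, 10.78, 10.77 and 10.36 in the mutant mice, against 10.51, 10.37, 10.44 and 10.503 in the wild type mice, a log2 fold change of 0.20 (SE 0.10). ILMN_2617433 was at 7.70, 7.91, 7.90 and 6.89 in the mutant mice, against 7.77, 7.51, 7.69 and 7.61 in the wild type mice, a log2 fold change of -0.04 (SE 0.20). In both probes mutant replicate 4 was the lowest of the 8 mice.

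Mutant replicate 4 therefore held an end of the range of the 8 mice on each of the 5 *Actb* probes, the highest value on 3 and the lowest on 2. On ILMN_2698799 it was the lowest only narrowly, at 10.36 against 10.37 in wild type replicate 2, and the other mutant mice lay farther from the median on that probe. Set against the median of each probe over the 8 mice, it was at 0.54, 1.57 and 1.604 on ILMN_1377923, ILMN_2588055 and ILMN_2846865, and at -0.81 and -0.15 on ILMN_2617433 and ILMN_2698799. The distance between the highest and the lowest of these deviations was 2.41 log2 units in mutant replicate 4. In the other mutant mice it was 0.27, 0.35 and 0.26, and in the wild type mice 0.59, 0.48, 0.17 and 0.09. The scanned intensities showed the same pattern, with 928 and 1028 on ILMN_2588055 and ILMN_2846865 in mutant replicate 4, against 312 to 504 on these probes in the other 7 mice. On ILMN_2617433 the scanned intensity was 216 in mutant replicate 4, against 290 to 347 in the other 7 mice.

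**Figure D3:**
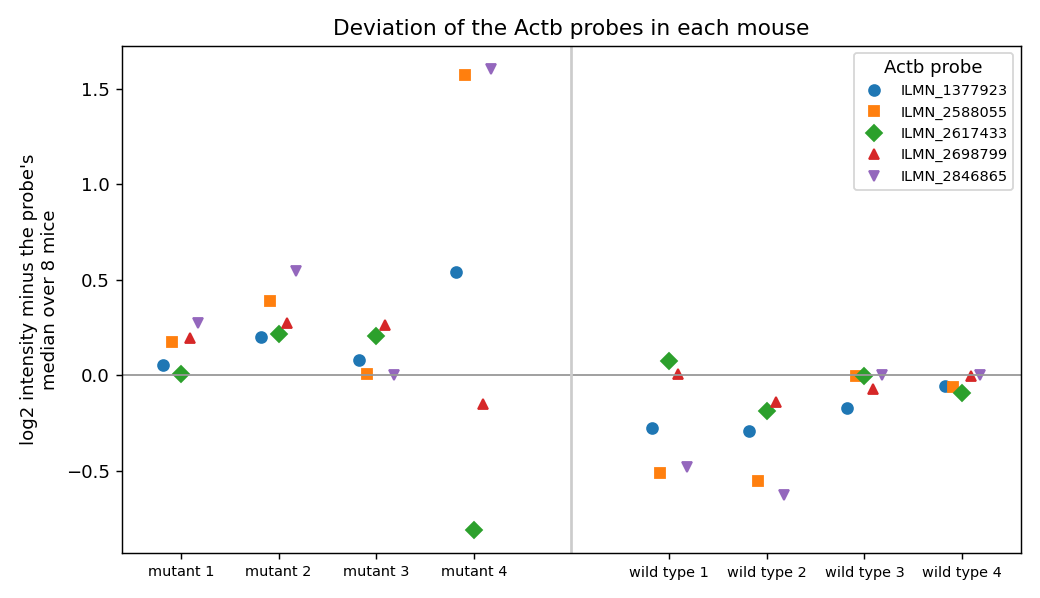
Deviation of each *Actb* probe from its own median over the 8 mice (log2 units), with mutant mice on the left and wild type mice on the right. In mutant replicate 4 the probes reach from -0.81 to 1.604, while in every other mouse they lie within 0.59 log2 units of each other.

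This spread was set beside that of the 2324 genes with at least 2 probes above background. The number of probes was not matched, and a distance from highest to lowest tends to grow with it. *Actb* had 5 probes. In mutant replicate 4, *Actb* had the widest spread of all these genes, and the next, *Rbm47*, had 1.26. A spread over 1 log2 unit was seen for 7 genes in that mouse, for 1, 1 and 4 genes in the other mutant mice and for 2, 1, 0 and 0 genes in the wild type mice. The median spread over all these genes was 0.16 in mutant replicate 4 and 0.12 to 0.17 in the other 7 mice, so most genes of that array did not share the pattern. *Gapdh*, another gene used as a reference for RNA amount, was at 13.06 and 13.89 on its 2 probes in mutant replicate 4, against ranges of 12.84 to 13.04 and 13.73 to 13.87 in the other 7 mice. Over all probes compared, mutant replicate 4 held the highest or the lowest value on 34.0% and wild type replicate 1 on 36.8%, against 18.5% to 25.1% in the other 6 mice. What part this had in the *Actb* values was not tested.

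**Figure D4:**
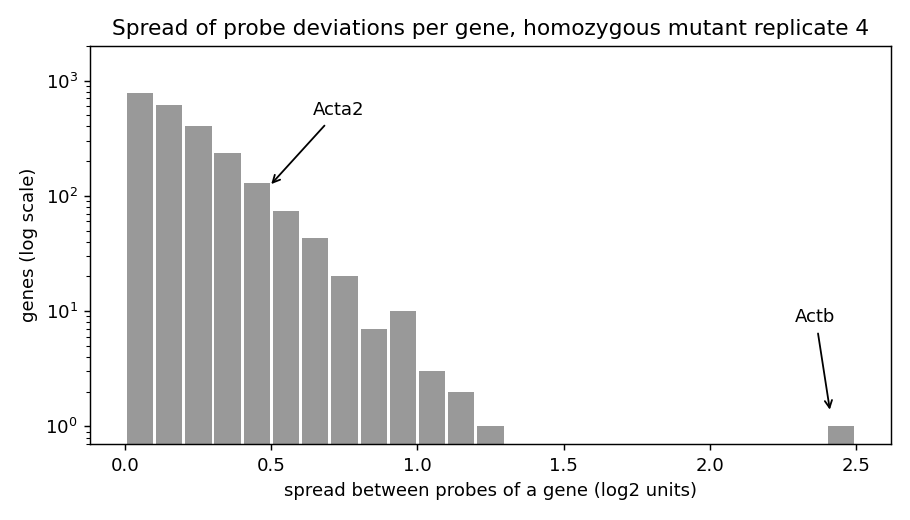
Number of genes (log scale) by the spread between their probes' deviations in homozygous mutant replicate 4, for the 2324 genes with at least 2 probes above background. *Actb* lies at 2.41 log2 units, beyond the next gene at 1.26, and *Acta2* lies at 0.49.

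Without mutant replicate 4, all 5 *Actb* probes had a higher mean in the mutant mice. Their log2 fold changes then ran from 0.19 to 0.55, a span of 0.36 log2 units in place of 0.93, and 2 of the 5 probes were called, ILMN_1377923 at 0.31 and ILMN_2698799 at 0.29. ILMN_2588055 and ILMN_2846865 had 0.47 and 0.55 without this mouse, against 0.82 and 0.88 with it. The mouse was singled out by these same *Actb* values, so the narrower span follows in part from that choice and supports nothing further. In this setting 1433 of all 12914 probes were called.

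The remaining smooth muscle genes above background had 1 probe each, and none was called. *Myh11* was at 6.58, 6.65, 6.56 and 6.60 in the mutant mice, against 6.22, 6.26, 6.42 and 6.57 in the wild type mice. The mutant mice were close together, and only wild type replicate 4 reached into their range. The log2 fold change was 0.23 (SE 0.08), and the probe was called only without wild type replicate 4, where it had 0.30. *Des* was at 6.24, 6.20, 6.15 and 6.17 in the mutant mice, against 6.52, 6.18, 6.23 and 6.35 in the wild type mice, with a log2 fold change of -0.13 (SE 0.08) and overlapping genotypes. *Tagln* was near background. It was at 4.88, 5.07, 4.96 and 5.36 in the mutant mice, of which 3 were above background, against 5.18, 5.29, 5.03 and 5.13 in the wild type mice, all above background. Its log2 fold change was -0.09 (SE 0.11). The mutant mean was thus higher for *Myh11* and lower for *Des* and *Tagln*, and the genotypes overlapped in all of them.

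The probes of *Actg1* and *Cnn1* were not above background on any of the 8 arrays. *Actg1* was at 4.40 ± 0.08 in the mutant mice and 4.37 ± 0.02 in the wild type mice, and *Cnn1* at 4.52 ± 0.20 in the mutant mice and 4.50 ± 0.11 in the wild type mice (SD, n = 4 each). No fold change is given for them. Their lowest detection p-values were 0.271 and 0.0802. For a gene that most cells use, such as *Actg1*, this describes the signal of the probe and not the amount of the transcript.

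Genes related to the actins by function were taken from 4 lists, in which a gene stands for its brightest probe. Of 21 further genes of the contractile apparatus, 19 had a probe, 9 were above background and none was called. Their log2 fold changes ran from -0.08 to 0.25 with a median of 0.06, against 0.03 over all 8999 genes compared, of which 16.2% were called. The brightest were *Myl6*, a myosin light chain gene, with 0.17 (SE 0.11, adjusted p = 0.307 from limma), the tropomyosin gene *Tpm1* with 0.01 (SE 0.05, adjusted p = 0.89) and *Mylk*, the myosin light chain kinase gene, with -0.04 (SE 0.08, adjusted p = 0.727). *Smtn*, which encodes smoothelin, a protein of contractile smooth muscle, had the highest value of the list, 0.25 (SE 0.10, adjusted p = 0.0918), and was not called. Among the 10 genes not above background were *Actg2*, *Lmod1*, *Synpo2*, *Pln* and *Kcnmb1*. The list of other actins, *Acta1*, *Actc1* and *Actg2*, was below background as a whole.

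Among genes that control or follow SRF, 9 of 12 had a probe and 5 were above background. Of these 5, 1 fell and 4 were not called (median log2 fold change -0.17). Over all genes compared 16.2% were called and the median was 0.03, so 1 call in 5 genes is near that share. The one that fell was *Fhl2*, which encodes a cofactor that binds SRF and other transcription factors. It was at 6.78, 6.50, 6.46 and 6.81 in the mutant mice, against 7.62, 7.02, 7.02 and 7.60 in the wild type mice. All mutant mice were thus lower than all wild type mice, by -0.68 on the log2 scale (adjusted p = 0.0212 in limma, SE 0.16). Its call was lost without mutant replicates 2 or 3 and without wild type replicate 1, where the log2 fold change was -0.63, -0.62 and -0.57. *Srf* itself had 0.12 (SE 0.10, adjusted p = 0.434). *Fhl1*, the brightest gene of the list, had -0.175 (SE 0.07, adjusted p = 0.103 in limma). *Vcl* had -0.17 (SE 0.07, adjusted p = 0.113 in limma), and neither was called. The immediate early gene *Egr1* had the highest value of the list, 0.76, but with an SE of 0.29 was not called (adjusted p = 0.0976).

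Of 34 regulators of the actin filament, 28 had a probe and 25 were above background. Of these 25, 3 fell, none rose and 22 were not called, with a median of -0.07, so that the share called was no higher than the 16.2% of all genes. *Msn*, which encodes moesin, a protein that ties actin filaments to the cell membrane, was at 8.61, 8.65, 8.70 and 8.67 in the mutant mice, against 9.31, 9.06, 9.22 and 9.28 in the wild type mice. The genotypes did not overlap on this probe, and the log2 difference was -0.57 (adjusted p = 0.00276 in limma, SE 0.07). *Ezr*, the related ezrin gene of the tubular brush border, had 0.15 (SE 0.05, adjusted p = 0.0775). *Capza1*, a subunit of the protein that caps filament ends, had -0.36 (SE 0.07, adjusted p = 0.0124), and *Capzb*, the other subunit of that protein, had 0.05 (SE 0.06, adjusted p = 0.582). The non-muscle myosin gene *Myh10* had -0.24 (SE 0.07, adjusted p = 0.0396) and lost its call with the replicate block and when any 1 of the 8 mice was left out, where the log2 fold change ran from -0.26 to -0.20. Its relative *Myh9* had 0.04 (SE 0.07, adjusted p = 0.697). *Msn* and *Capza1* were called in all 15 other settings.

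**Figure D5:**
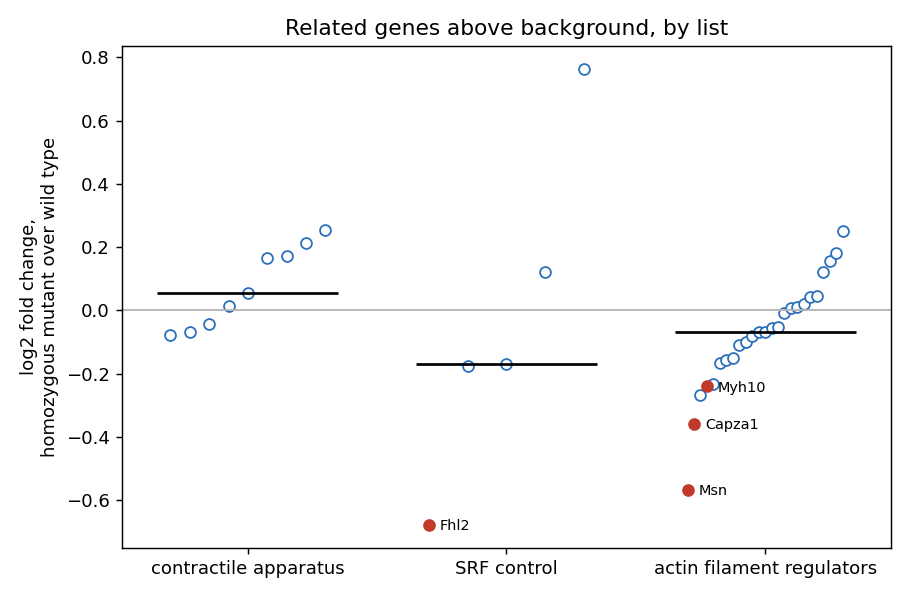
Log2 fold change, homozygous mutant over wild type, of the genes above background in 3 of the lists of related genes. Filled red points are the 4 called genes, open points those not called, and the bars are the list medians of 0.06, -0.17 and -0.07.

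Markers of the cells in and around the kidney were read beside these values, each list by its genes above background and by the mean log2 level of those genes in each mouse. Calls in these lists stand beside the 16.2% called over all genes compared. Of 7 genes of mesangium, renin cells and pericytes, the last of which also make *Acta2*, 4 were above background. All 4 had fold changes between -0.26 and -0.21, and the pericyte proteoglycan gene *Cspg4* fell (log2 fold change -0.21, adjusted p = 0.0323 in limma, SE 0.06). The mean level of this list was 6.53 to 6.68 in the mutant mice and 6.71 to 7.00 in the wild type mice, with *Rgs5* not above background. Of 6 endothelial genes, all above background, *Cdh5* fell (-0.37, adjusted p = 0.0211 in limma, SE 0.09) and 5 were not called. The mutant mean of these 5 was lower for *Pecam1* (-0.37), *Emcn* (-0.25) and *Tek* (-0.22). It was higher for *Flt1* (0.19) and *Kdr* (0.09), so the list did not move in 1 direction. The endothelial list was at 7.92 to 8.08 in the mutant mice and 7.99 to 8.30 in the wild type mice. Of 7 fibroblast genes, 4 were above background and none was called, and the list was at 6.90 to 7.14 in the mutant mice and 6.82 to 7.36 in the wild type mice.

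Of 10 genes of the urothelium, which lines the renal pelvis next to a layer of smooth muscle, 8 were above background and 4 rose. Over all genes 16.2% were called, in either direction. The 4 were the uroplakin genes *Upk1b* (0.91, adjusted p = 0.00819 in limma), *Upk3a* (0.77, adjusted p = 0.0099), *Upk2* (0.67, adjusted p = 0.0106) and *Upk1a* (0.54, adjusted p = 0.0128), while *Trp63* and *Upk3b* had -0.01 and 0.02. All 4 were dim, with means of 5.21 to 6.08 in the wild type mice. *Krt7*, the brightest gene of the list, had 0.24 (adjusted p = 0.0587 in limma) and was not called. The list was at 6.47 to 6.75 in the mutant mice and 6.04 to 6.22 in the wild type mice. Of the 6 tubule genes, *Slc12a1* (-1.14, adjusted p = 0.00276), *Umod* (-0.54, adjusted p = 0.00605) and *Lrp2* (-0.47, adjusted p = 0.0274) fell and *Slc12a3* rose (0.30, adjusted p = 0.0235). Their mean level was 10.66 to 10.97 in the mutant mice and 11.07 to 11.14 in the wild type mice. Of 8 striated muscle genes, 7 were not above background, *Ckm*, *Myh4* and *Acta1* among them, and the other, *Tnni2*, was not called and lay at 4.88 to 5.20 in the mutant mice and 4.78 to 5.09 in the wild type mice. What part these cells had in the actin values was not tested.

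The genes whose pattern over the 8 arrays was most like that of *Acta2* also differed by probe. For ILMN_2693895 they were *Bgn*, *Kank3*, *Lzic*, *Ncoa1* and *Zcchc9*, with Pearson coefficients of 0.96 to 0.92, and none of these was called between the genotypes. For ILMN_2710353 they were *Tfdp1*, *Ranbp6*, *Lhfp*, *Emp1* and *Tsnax*, with coefficients of 0.98 to 0.97, of which all but *Tsnax* were called lower. Both sets were the highest among 8994 genes over only 8 arrays, where high coefficients can also arise by chance. The arrays were of 2 genotypes, so a likeness to ILMN_2710353 holds the difference between genotypes in it. Between ILMN_2693895 and ILMN_2710353 themselves the coefficient was 0.01, so their lists could hardly be alike. Between ILMN_2693895 and ILMN_2923445 it was 0.93.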

How the data were processed

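Kidney total RNA of 8 mice was labelled with biotin and hybridized to Illumina BeadChips, 1 array per mouse. The authors deposited scanned bead intensities, without background subtraction or normalization, and a detection p-value per probe and array, exported with GenomeStudio 2011.1. The authors also deposited intensities normalized by cubic spline, in which values below 0 occur.

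Scanned intensities were processed with neqc (offset 16) and tested with lmFit and eBayes of limma 3.58.1 in R 4.3.3, with genotype as the only term, across the 12914 of 25697 probes with a detection p-value under 0.05 on at least 4 arrays. Adjustment was by Benjamini and Hochberg over all these probes. SAM, the method of the study, was rewritten from its description and not compared with the original software. It was run on the authors' intensities (floor 16, 70 arrangements, FDR under 6%, fold above 1.6). The probes it passed outnumbered the differentially expressed genes that the paper reports. These counts are of probes and of genes, and the published list was not shown to be reproduced. Fits were tested on simulated data. Probes were named from the platform annotation. Sequences are from RefSeq.

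All probes of the genes in question were described. From the lists, genes called or else the brightest 3 were named; *Ezr*, *Capzb*, *Myh9*, *Srf*, *Egr1*, *Smtn*, *Gapdh*, *Rbm47* and the uncalled list and marker genes were named after their values were seen. Genes and lists were chosen with earlier results of these data known. Precision is limited by the number of arrays, with a median SE of 0.0839 for the fold changes on the log2 scale.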

Additional observations from a re-analysis of the deposited data

Results flagged for a closer look

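The spread between the 5 *Actb* probes was flagged in the homozygous mutant mice because 1 mouse lay far from the others. It was 2.41 log2 units in mutant replicate 4 and 0.27, 0.35 and 0.26 in mutant replicates 1 to 3, and the gap to the nearest of these made up 0.96 of the whole range, above the critical value of Dixon's test for 4 samples. Of 28 groups of values examined in this way, 1 was flagged, and chance flags about 1 in 20. These groups were the 2 genotypes on the 12 probes above background and the probe spreads of *Actb* and *Acta2*, and no mouse passed this limit on any of those 12 probes.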

How the results depend on the processing

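The 2 calls behaved differently. *Acta2* ILMN_2710353 was called lower in all 15 limma alternatives, with log2 fold changes of -0.86 to -0.22, and in SAM. *Actb* ILMN_1377923 was called higher in 9 of 15. The count of called *Acta2*, *Actb* and other probes, 2 at first, was 1 with median scaling and with no filter, 4 with an offset of 50, and 1 to 3 when single mice were left out. The 4 related genes called became 9 without background correction and 2 to 5 when single mice were left out. The calls over all probes moved as well. Of 12914 probes, the 2160 called became 1829 with median scaling, 2613 with an offset of 50 and 2813 without background correction. With no filter 1757 of 25697 probes were called. When single mice were left out, 1140 to 1684 were called. These were 1140 without wild type replicate 1, 1314 and 1433 without mutant replicates 2 and 4, and 1315 without wild type replicate 2. Replicate numbers were not taken as pairs, and only number 1 correlated best with its own number. With 4 mice per genotype this cannot exclude a pairing. With the replicate block 1352 probes were called, *Myh10* lost its call and the 2 *Acta2* and *Actb* calls held. SAM, in the version rewritten here, passed 2387 probes at its FDR, both *Acta2* and *Actb* calls among them, and its added fold limit reduced these to 234 and to 1, *Acta2* ILMN_2710353. Where a call was lost elsewhere the cause was not tested, except that fewer mice were compared when 1 was left out.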
